A study of Mus musculus with 2 samples.

Results

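The calcium store of the endoplasmic reticulum (ER) was described here by 10 genes in mouse Purkinje cells, the neurons that carry the output of the cerebellar cortex. The 10 genes were taken by name from 43346 genes with Ensembl identifiers in the deposited tables, and all 10 were found. They encode the release channels gated by inositol trisphosphate (IP3; Itpr1, Itpr2, Itpr3), a protein that binds the first of these (Car8), the ryanodine receptors (Ryr1, Ryr2, Ryr3), the SERCA calcium pumps that fill the store (Atp2a2, Atp2a3) and the store's calcium sensor (Stim1). Atp2a1, which encodes the remaining SERCA pump, was added for comparison. The measured material was RNA from 2 pools of 30 cells, each cut from tissue by laser capture. Every cell came from adult male B6CASTF1/J mice of 14 months, a first-generation hybrid of C57BL/6 and a Castaneus strain, and no treatment is named. The labels give the pools as biological replicates 1 and 2 of 1 group and one shared donor identifier, without saying whether a single animal was used. An SD between the pools therefore covers only these libraries and may be technical. There was no contrast between conditions, and no test between groups was made.

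Calcium in the ER of a Purkinje cell is released by IP3, which phospholipase C makes when glutamate from parallel fibres reaches the cell. IP3 receptors and ryanodine receptors are both tetramers with a central pore, and ryanodine receptors open on calcium itself, while SERCA pumps return calcium to the store at the cost of ATP. The IP3 receptor of the first type was first purified from cerebellum, where Purkinje cells hold far more of it than other cells do, and mutations in ITPR1 and CA8 cause ataxia in people.

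The pools matched their label and also held RNA of markers of other cell types, glia among them. All 13 Purkinje cell markers had a TPM (a level per transcript length, scaled to a fixed sum in each library) of at least 1 in both pools, with a sum of 94731 TPM in pool 1 and 93854 in pool 2. The highest were Gng13, a G protein gamma subunit, at 38512 TPM ± 1326 (SD, n = 2) and Pcp4, a calmodulin-binding peptide, at 25537 ± 1651. Of 14 markers of Bergmann glia and astrocytes, 13 reached 1 TPM in both pools, and their sum was 2638 TPM in pool 1 and 4669 in pool 2. Of 5 red blood cell markers 4 did so, with sums of 2453 and 16.3 TPM. Granule cells had 6 of 10 markers at that level (sums 38.4 and 50.8 TPM) and oligodendrocytes 3 of 10 (38.8 and 55.2). Inhibitory interneurons had 2 of 7 (25.6 and 24.0 TPM), endothelial and mural cells 3 of 12 and microglia 2 of 11. The part of such cells in the low store genes was not tested. The tables held 31503819 expected counts (estimated reads) for pool 1 and 28709397 for pool 2. In pooled material, a lower level can mean fewer cells of a type or less RNA per cell, and these cannot be told apart.

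The pore of each release channel is shown first, since the IP3 and ryanodine receptors share it while the bases that encode it differ. Each line gives 48 coding bases, 5′ to 3′ on the gene's strand, from full-length GENCODE M21 transcripts on build GRCm38 (mm10). The 18 capitals are the codons of the selectivity filter, a stretch of the pore. The windows are on chr6:108518773-108518820 (+) for Itpr1, chr6:146158896-146158943 (-) for Itpr2, chr17:27118616-27118663 (+) for Itpr3, chr7:29005583-29005630 (-) for Ryr1, chr13:11560612-11560659 (-) for Ryr2 and chr2:112636616-112636663 (-) for Ryr3. All lie in coding exons.
Itpr1: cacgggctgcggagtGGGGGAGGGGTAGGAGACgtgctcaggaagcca
Itpr2: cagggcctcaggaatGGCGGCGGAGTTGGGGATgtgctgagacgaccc
Itpr3: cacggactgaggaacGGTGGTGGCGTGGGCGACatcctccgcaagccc
Ryr1: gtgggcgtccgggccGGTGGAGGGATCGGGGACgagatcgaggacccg
Ryr2: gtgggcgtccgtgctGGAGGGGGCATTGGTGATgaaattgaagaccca
Ryr3: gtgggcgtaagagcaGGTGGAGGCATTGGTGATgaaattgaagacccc
Itpr1 matched Itpr3 at 34 of the 48 bases, Itpr2 at 31 and Ryr1 at 28, while Ryr2 and Ryr3 matched each other at 41. Over whole transcripts, 1 full-length transcript of each gene was compared, which was not always its highest. None of the 9840 stretches of 31 bases in the Itpr1 transcript occurred in those of Itpr2 or Itpr3. Those of Ryr1 and Ryr2 shared 5 such stretches of 15328, and pairs of SERCA transcripts shared 14 to 26. The short transcripts that hold most of the Ryr3 and Atp2a1 TPM were not compared. The highest share of exact stretches between paralogs was 0.754%, between Atp2a1 and Atp2a3.

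The store genes fell into a group of 3 between 882 and 1255 TPM and a group of 7 at 23.4 TPM or less in each pool. Car8, Atp2a2 and Itpr1 were the highest, Atp2a3 and Stim1 were intermediate, and the 3 ryanodine receptors, Itpr2 and Itpr3 stayed below 1 TPM in both pools. Thus 5 of the 10 genes reached 1 TPM in both pools, beside 16.4% of all genes with Ensembl identifiers and 30.3% of the 21461 nuclear protein-coding genes. The genes were chosen for their function with earlier results of these data known, so nothing is read from that difference. Among protein-coding genes detected in both pools, the median level was 4.57 TPM in pool 1 and 5.78 in pool 2, which places Stim1 near the middle of the detected genes. Between neighbours in the order of levels, only the ranges of Ryr3 and Ryr2 overlapped. The means of Car8 and Atp2a2 differed by 35.7 TPM, less than the SD of 38.1 between the pools for Car8. Within a pool, Atp2a2 minus Car8 was -17.2 TPM in pool 1 and -54.2 in pool 2. Their order was thus the same in both pools but rests on small differences in 2 libraries.

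**Figure D1:**
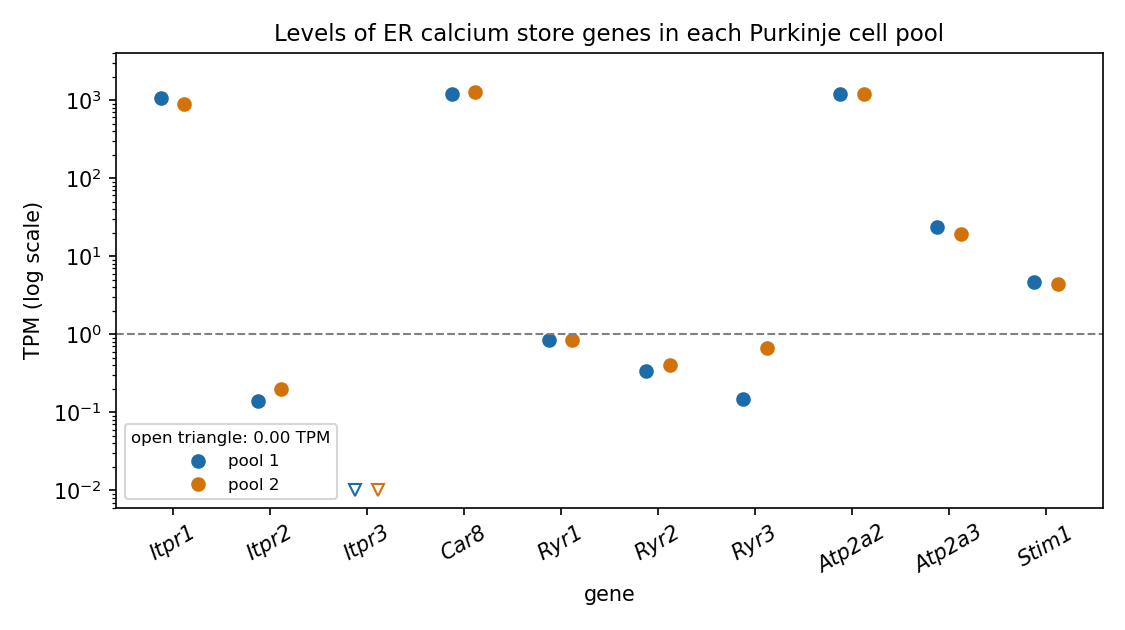
TPM of the 10 store genes on a log axis, with 1 point for each pool, the dashed line at 1 TPM and open triangles for a listed TPM of 0. Car8, Atp2a2 and Itpr1 lie between 882 and 1255 TPM in both pools, and 5 genes lie under the line.

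Itpr1, the IP3 receptor of the first type, had 1063 TPM in pool 1 and 882 in pool 2, from 421025 and 300789 counts (mean 973 ± 128, SD, n = 2). Both values are high, and pool 1 is the higher. The gene (ENSMUSG00000030102.8) spans chr6:108213096-108551109 on the plus strand, and it ranked 86 and 104 among protein-coding genes by TPM. Its transcript of 9848 bases is long for a level of this kind. Of 246 protein-coding genes with a mean transcript length over 9000 bases, Itpr1 was the only one with at least 100 TPM in both pools, a pair of limits chosen after the values were seen. Of those 246 genes, 25.6% reached 1 TPM in both pools, against 36.9% of genes of 6000 to 9000 bases and 28.8% of genes of up to 3000.

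Itpr2, the IP3 receptor that prevails in heart and in astrocytes, had 0.14 TPM in pool 1 and 0.20 in pool 2, from 66 and 82 counts. The exact Poisson intervals (95%) were 0.109 to 0.179 TPM and 0.161 to 0.251 TPM, which overlap; these and all other intervals cover counting error only. The gene lies at chr6:146108299-146502223 on the minus strand, and the pseudogene Gm15720 lies within its span on the same strand with 100.25 and 60.01 counts of its own. Itpr3, the receptor typical of epithelia and taste cells (chr17:27057304-27122223, plus strand), was listed at 0 TPM in both pools from 0 counts and 1 count. The exact Poisson intervals reach 0.0102 TPM in pool 1 and 0.0179 TPM in pool 2. Of the summed TPM of the 3 IP3 receptors, Itpr1 held 99.99% in pool 1 and 99.98% in pool 2. Itpr1 TPM was 7595 times that of Itpr2 in pool 1 and 4411 times in pool 2. IP3 receptor RNA in both pools was Itpr1 almost throughout, while Bergmann glia and astrocyte markers were present in both. The higher Itpr2 point estimate stood in pool 2, the pool with the higher glial marker sum; a glial part in it was not tested.

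Car8 encodes a carbonic anhydrase relative that lacks the enzyme activity and binds the IP3 receptor of the first type, lowering its affinity for IP3. It had 1201 TPM in pool 1 and 1255 in pool 2, from 183084 and 164744 counts (1228 ± 38.1, SD, n = 2). The pools lie close together, and Car8 was the highest of the 10 genes in each. The gene spans chr4:8143362-8239041 on the minus strand, with 1 deposited transcript of 3853 bases. Per transcript length, Itpr1 stood at 0.886 of Car8 in pool 1 and 0.703 in pool 2. In each pool, the RNA of the receptor and of its binding partner were therefore of one order of magnitude.

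The ryanodine receptors were all low, and which of them led is weakly determined. Ryr1, the release channel of skeletal muscle that is also found in Purkinje cells, had 0.85 TPM in both pools, from 527 and 453 counts (chr7:29003344-29125179, minus strand). Its exact Poisson intervals were 0.779 to 0.926 and 0.773 to 0.931 TPM, so it lay below 1 TPM in both. Ryr2, the cardiac form and the most widespread one in brain, had 0.34 and 0.40 TPM from 228 and 231 counts (chr13:11553102-12106945, minus strand). These values overlap within counting error, with intervals of 0.294 to 0.382 and 0.346 to 0.450 TPM. Ryr3, a form with low, scattered expression in brain and muscle, had 0.15 TPM in pool 1 and 0.66 in pool 2, from 15.45 and 59.55 counts (chr2:112631355-113217096, minus strand). By counting error alone its pools stand apart, with intervals of 0.0821 to 0.242 and 0.504 to 0.850 TPM.

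Summed, the 3 ryanodine receptors came to 1.34 TPM in pool 1 and 1.91 in pool 2, and Itpr1 stood at 1251 and 1038 times the TPM of Ryr1. Ryr1 held 63.4% of the family's TPM in pool 1 and 44.5% in pool 2 (54.0 ± 13.4, SD, n = 2). Ryr2 held 25.4% and 20.9%, and Ryr3 held 11.2% and 34.6%. Ryr1 had the highest share in each pool by deposited TPM, while Ryr2 and Ryr3 changed places between the pools. By posterior mean TPM, another deposited estimate, Ryr1 led in pool 1 with 56% and Ryr3 led in pool 2, with 41.7% against 39.8% for Ryr1. The Ryr3 share rests on how its few reads were assigned. Nearly all of them, 15.45 and 57.29 counts, were placed on a transcript of 2616 bases that GENCODE M21 does not list, which by posterior mean TPM held only 44.03% and 71.21% of the gene. Long coding transcripts of 15396 and 15410 bases had 0 counts in both pools, and one of 14729 bases had 0 and 2.26. Dividing the Ryr3 counts by the length of 15396 bases gives 0.0249 and 0.111 TPM, and Ryr1 then holds 70.0% and 62.4% of the family. The span of Ryr3 also meets that of Aven on the opposite strand at chr2:112631355-112634573, where Aven had 27.55 and 66.45 counts in all. In each pool the counts of Ryr3 and Aven are fractional and add up to a whole number, as when reads are divided between both genes. Reads of this stretch therefore cannot be assigned with certainty, and the Ryr3 intervals do not cover that division.

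**Figure D2:**
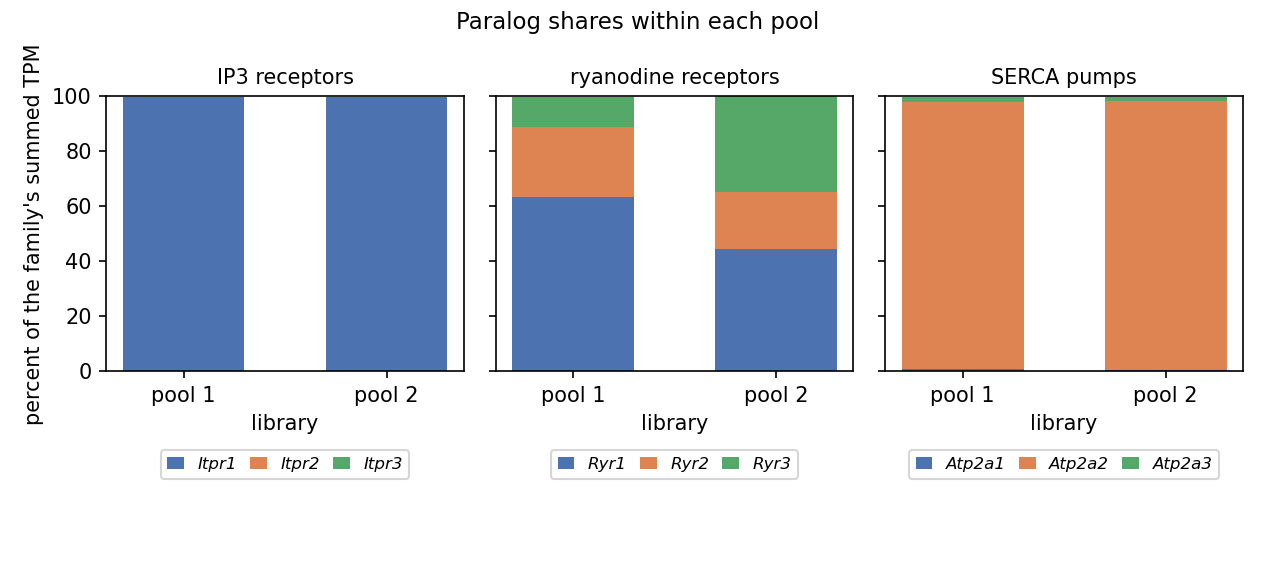
Share of each paralog in the summed TPM of its family (percent, bars stacked to 100) for each pool, with 1 panel for each family. Itpr1 and Atp2a2 fill nearly all of their panels, and the ryanodine receptors are split, with Ryr1 at 63.4% and 44.5%.

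SERCA pump RNA was almost all Atp2a2 in both pools. Atp2a2, which encodes SERCA2, the pump of heart, slow muscle and most other tissues, had 1184 TPM in pool 1 and 1201 in pool 2, from 203125 and 177299 counts (1192 ± 11.97, SD, n = 2). It was the steadiest of the 3 highest genes by TPM, at chr5:122453513-122502225 on the minus strand. Atp2a3, which encodes SERCA3, a pump of lower calcium affinity known from blood cells, epithelia and Purkinje cells, had 23.4 and 19.3 TPM from 4151 and 2948 counts (21.3 ± 2.89, SD, n = 2; chr11:72961169-72993044, plus strand). Atp2a1, the SERCA1 gene of fast skeletal muscle (chr7:126445858-126463108, minus strand), had 9.17 and 6.09 TPM from 408.76 and 252.16 counts. The order of the SERCA genes was the same in both pools. Atp2a2 held 97.3% and 97.9% of SERCA TPM, Atp2a3 held 1.92% and 1.57%, and Atp2a1 held 0.754% and 0.497%. Atp2a2 TPM was 50.6 times that of Atp2a3 in pool 1 and 62.2 times in pool 2.

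Atp2a1 is a case where TPM and counts part. Of its TPM, 72.4% in pool 1 and 69.7% in pool 2 sat on a transcript of 328 bases that GENCODE M21 does not list, from only 61.78 and 34.03 counts. Its full-length transcript had 2.53 and 1.85 TPM. The Atp2a1 span also meets Rabep2 on the opposite strand, with 36.24 and 22.84 counts for that gene.

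SERCA2 is made in forms that differ at the end of the protein, and the transcript tables separated them. SERCA2a is the form of heart and slow muscle, and SERCA2b, with a longer end that crosses the ER membrane once more, is the form found in most tissues. The ends of the coding sequences are printed below the 30 bases that precede them in both, which are in lower case, and the capitals mark where the transcripts differ. Both are from GENCODE M21 on GRCm38, minus strand, and end in the stop codon. The capitals of the SERCA2a end are chr5:122454291-122454304 (14 bases) and those of the SERCA2b end are chr5:122457151-122457302 (152 bases), all coding.
Atp2a2 SERCA2a end: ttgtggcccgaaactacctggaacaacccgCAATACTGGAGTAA
Atp2a2 SERCA2b end: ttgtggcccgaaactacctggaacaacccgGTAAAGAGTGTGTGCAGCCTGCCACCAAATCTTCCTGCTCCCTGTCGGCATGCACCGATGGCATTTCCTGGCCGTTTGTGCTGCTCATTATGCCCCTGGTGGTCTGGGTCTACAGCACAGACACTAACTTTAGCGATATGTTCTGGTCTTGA
Up to that point the coding sequences are identical over 2983 bases. The SERCA2a transcript (deposited as ENSMUST00000177974.3) encodes 998 residues, and the SERCA2b transcript (ENSMUST00000031423.8) encodes 1044. The SERCA2a transcript had 1114 TPM in pool 1 and 1150 in pool 2, and the SERCA2b transcript had 69.33 and 50.54. In percent of the gene's TPM as the authors deposited it, SERCA2a had 94.14% and 95.79% and SERCA2b had 5.86% and 4.21%, from 12367 and 7763 counts. The remaining deposited transcript of the gene had 0 TPM. The SERCA2a transcript was the major one in both pools by this estimate. The reads that separate the ends are not in these tables, and the deposited transcripts also differ beyond the coding sequence (4314 and 4491 bases in all), so what the split rests on was not tested.

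The other members gave less on transcripts. Among the 6 members with more than 1 deposited transcript, 4 had the same highest transcript in both pools. A transcript of Atp2a3 that encodes 981 residues held 95.75% and 98.32% of Atp2a3, and a transcript of 11679 bases held 100% and 99.95% of Itpr2. By posterior mean TPM that Itpr2 transcript held only 16.66% and 20.26%, and other transcripts were the highest (22.07% in pool 1 and 21.83% in pool 2), so the Itpr2 transcript is not determined at this depth. Ryr1 was placed entirely on a transcript of 15362 bases in pool 1 and entirely on one of 15352 bases in pool 2. Both are full length and differ by 10 bases in length. By posterior mean TPM the longer held 91.44% in pool 1 and 35.54% in pool 2, so neither pool was placed entirely on 1 transcript by that estimate. Ryr2 was divided equally between a pair of transcripts of 16813 bases each. Itpr1, Itpr3, Car8 and Stim1 had a single deposited transcript. GENCODE M21 lists 13 transcripts of Itpr1, so alternative splicing of the receptor was not measured here.

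**Figure D3:**
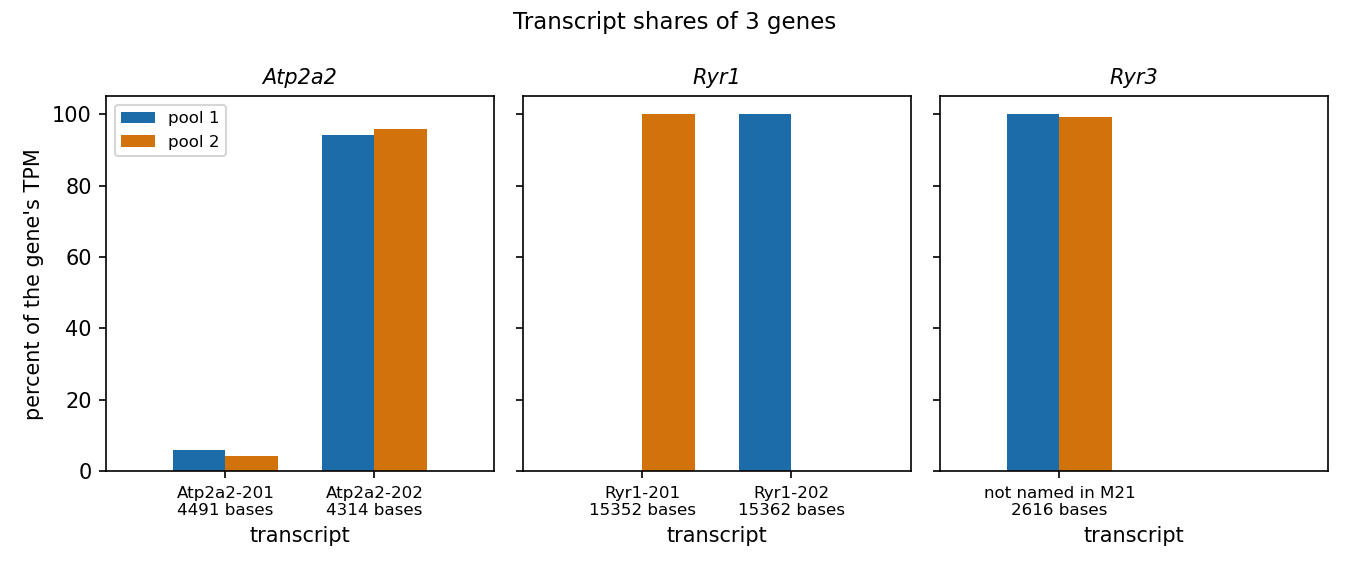
Percent of each gene's TPM in its transcripts with at least 5% in 1 pool or more, for Atp2a2, Ryr1 and Ryr3, with 1 bar for each pool and the deposited length under each name. The SERCA2a transcript of 4314 bases leads in both pools, and Ryr3 sits on a transcript of 2616 bases. By this estimate Ryr1 is placed on the transcript of 15362 bases in pool 1 and that of 15352 in pool 2. Posterior mean TPM divides Ryr1 between both in each pool.

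Stim1, which senses falling calcium in the ER and opens Orai channels in the plasma membrane, had 4.62 TPM in pool 1 and 4.38 in pool 2, from 656 and 536 counts (4.50 ± 0.170, SD, n = 2; chr7:102267806-102437319, plus strand). The pools are close, with overlapping exact Poisson intervals of 4.27 to 4.98 and 4.02 to 4.77 TPM. Itpr1 TPM was 230.2 times that of Stim1 in pool 1 and 201.4 times in pool 2. Its relative Stim2 had 4.32 and 2.97 TPM, from 448 and 231 counts, so by point estimate Stim1 was the higher in each pool. In pool 1 the Stim2 value lay inside the Stim1 interval, so that order is not settled there.

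Between the pools, 9 of the 10 genes had at least 10 counts in total and could be compared, on counts scaled by TMM, which sets the bulk of genes equal. Ryr3 was the 1 gene of these 9 beyond 2-fold, beside 32% of 14478 genes with that many counts, of which 16.5% were higher in pool 2 and 15.5% in pool 1. The Ryr3 ratio, pool 2 over pool 1, was 3.72 (exact interval 2.17 to 7.33) from 75 counts in all. That interval does not cover how reads were divided between Ryr3 and Aven. Of 3510 genes with totals within 2-fold of that, 44.8% lay beyond 2-fold and 20.0% had a larger difference than Ryr3. Its distance between the pools is one that many genes with so few reads had.

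Of the 9 genes, 2 were higher in pool 2, Itpr2 at 1.20 (0.858 to 1.69) and Ryr3, beside 50.1% of the 14478 genes. The lowest ratios were 0.686 for Atp2a3 (0.654 to 0.720) and 0.690 for Itpr1 (0.687 to 0.694). Stim1 had 0.789, Ryr1 0.831, Atp2a2 0.843, Car8 0.869 and Ryr2 0.979. The Itpr1 log2 ratio of -0.53 was larger in size than that of most genes of like depth, whose median size was 0.35 over 23 genes, with 21.7% of them larger. For Atp2a3, at -0.54, the median size was 0.29 over 872 genes, with 19.5% larger. By contrast, 74.1% of 27 genes like Car8 and 73.1% of 26 genes like Atp2a2 differed more than those genes did.

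The direction of small differences depends on the scaling. The median log2 ratio of genes detected in both pools was -0.02 under TMM, 0.01 with DESeq2 size factors, 0.17 with total counts, 0.24 in TPM and -0.80 with spike-in totals. In TPM, Car8 had a log2 ratio of 0.06 and Atp2a2 of 0.02, so both turn from lower to higher in pool 2, and Itpr1 and Atp2a3 remained lower at -0.27 and -0.28. Ryr3 was higher in pool 2 under each of these scalings, and Itpr1, Atp2a3 and Stim1 were lower under each. Itpr2 turned lower in pool 2 with spike-in totals, and Ryr2 turned higher with total counts and in TPM. With spike-in totals, 6 of the 9 genes lay beyond 2-fold, namely Itpr1, Ryr1, Ryr3, Atp2a2, Atp2a3 and Stim1, beside a median shift of all detected genes of -0.80.

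Marker lists moved between the pools as well. Purkinje cell markers had a median log2 ratio of -0.39 on TMM-scaled counts, with 2 of 13 higher in pool 2, so Itpr1 and Atp2a3 lay below that median and Atp2a2 and Car8 above it. Bergmann glia and astrocyte markers had 0.58, with 12 of 14 higher in pool 2. Slc1a3, a glial glutamate transporter, went from 1310 to 2298 TPM and Gja1, a gap junction protein, from 401.34 to 841.85, while Gfap stayed at 0.50 and 0.47. The part of the glial difference in any ratio of the store genes was not tested. For Atp2a3, which blood cells also express, platelet and white blood cell markers summed to 1.22 and 0.65 TPM, with 0 of 8 at 1 TPM in both pools and Cd3e, Gp9 and Itga2b at 0 counts. Red blood cell markers were higher in pool 1 for all 4 with enough counts (Hbb-bs, a globin, at 935.67 and 6.35 TPM), and their part in the higher Atp2a3 of pool 1 was not tested.

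**Figure D4:**
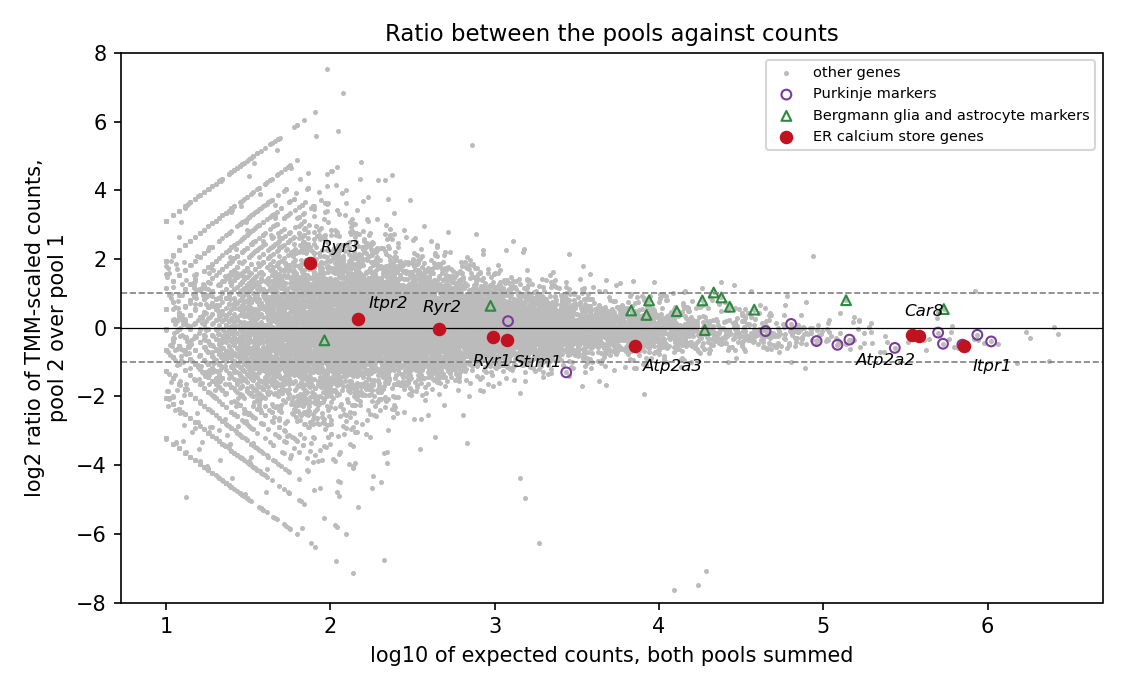
Log2 ratio of TMM-scaled counts, pool 2 over pool 1, against the log10 of summed expected counts, for genes with at least 10 counts in total and reads in both pools; dashed lines mark 2-fold. The store genes (filled circles, 9 shown) lie between the lines except Ryr3, Purkinje markers lie mostly below 0 and glial markers mostly above.

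The partners of the store were described with 10 lists holding 101 genes, of which 100 were found. Of these, 60 reached 1 TPM in both pools, 30 in neither and 10 in 1 pool (60%, beside 30.3% of protein-coding genes). These lists too were chosen with earlier results known. Of 91 partners with enough counts, 23 lay beyond 2-fold between the pools (25.3%, beside 32% of all genes compared) and 43 were higher in pool 2 (47.3%, beside 50.1%). Levels below are mean TPM ± SD (n = 2).

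Upstream of the IP3 receptor, 9 of 13 genes of the pathway that makes IP3 were detected in both pools. Homer3, a scaffold that binds the IP3 receptor, had 75.9 ± 11.8. Of 8 genes of IP3 metabolism 4 were detected in both. Inpp5a, which removes a phosphate from IP3 and so ends its signal, had 143 ± 6.36, Itpka, an IP3 kinase, had 37.4 ± 2.63, and Impa1, an inositol monophosphatase, had 16.3 ± 6.55. These genes are named because they are the highest of their list. Of the 8, 3 were below 1 TPM in both pools and 1 reached it in 1 pool.

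Of 15 genes whose products bind or turn over IP3 receptors, 7 were detected in both pools. Ahcyl1, known as IRBIT, which competes with IP3 for the receptor, was the highest at 123 ± 20.3. Bcl2l1, a survival factor that binds the receptor, had 6.89 ± 3.30 and Erp44, an ER thioredoxin known to inhibit it, had 6.37 ± 0.834. Car8, at 1228 TPM, was well above all of them.

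Of 13 genes of the ryanodine receptor complex and junctophilins, 5 were detected in both pools, and the leading ones were far above the receptors themselves. Fkbp1a, the immunophilin FKBP12, which binds ryanodine receptors and other proteins, had 292 ± 59.3 and Asph, whose products include junctin and an enzyme, had 183 ± 1.71. S100a1, a calcium-binding protein, had 54.5 in pool 1 and 173.9 in pool 2, a range that makes its mean of 114 a poor summary. Casq2, the cardiac form of the store's calcium buffer calsequestrin, named after its values were seen, had 19.3 and 23.5 TPM.

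The SERCA regulators found, 6 of 7 listed, were low beside the pump. Genes outside that list were not examined as SERCA regulators. Of the 6 found, 3 were detected in both pools. These were Vmp1, an ER membrane protein that activates SERCA, at 41.1 ± 8.66, Tmx1, an ER thioredoxin, at 2.32 ± 0.219, and Mrln, the skeletal muscle inhibitor myoregulin, at 1.93 ± 0.516 from 32 and 14 counts. Sln, the inhibitor sarcolipin, had 3.31 and 0.82 TPM from 56 and 12 counts, so it was detected in pool 1 alone. Pln, the cardiac inhibitor phospholamban, named like Mrln after its values were seen, had 0.20 and 0 TPM from 18 and 0 counts. These 3 inhibitors were at 3.31 TPM or less in each pool, where Atp2a2 stood at 1192 TPM.

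Of 9 other genes of store-operated entry, 6 were detected in both pools. Saraf, which slows STIM1, led with 50.4 ± 13.9, ahead of Orai2, a channel subunit, at 4.76 ± 1.68 and Stim2 at 3.65 ± 0.955. Inside the ER, 11 of 14 genes of calcium-binding proteins were detected in both, led by the chaperones Canx (calnexin, 337 ± 11.02), Hspa5 (BiP, 68.5 ± 4.54) and Hsp90b1 (GRP94, 60.7 ± 2.96). Of 9 leak and counter-ion channels 8 were detected in both, led by Tmco1, which lets calcium out of an overfilled store, at 44.0 ± 5.91, Tmbim6, a leak protein, at 30.5 ± 4.07 and Tmem38a, a potassium channel of the ER, at 13.5 ± 1.04.

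Outside the ER, Atp2c1, the calcium and manganese pump of the Golgi, had 14.7 ± 2.16, Tmem165, a Golgi ion transporter, had 6.39 ± 1.03 and Atp2c2 had 0 counts in both pools. The Golgi pump Atp2c1 thus lay closer in level to Atp2a3 than to Atp2a2. Of 10 genes of mitochondrial calcium uptake, which takes up calcium released near mitochondria, 5 were detected in both. Micu3, a neuronal enhancer of the uniporter, had 375 ± 28.6, Vdac1, the outer membrane channel, had 120 ± 7.64 and Smdt1, the uniporter subunit EMRE, had 51.6 ± 17.9. Mcu, the pore of the uniporter, named after its values were seen, had 0.64 and 0.72 TPM from 40 and 70 counts.

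**Figure D5:**
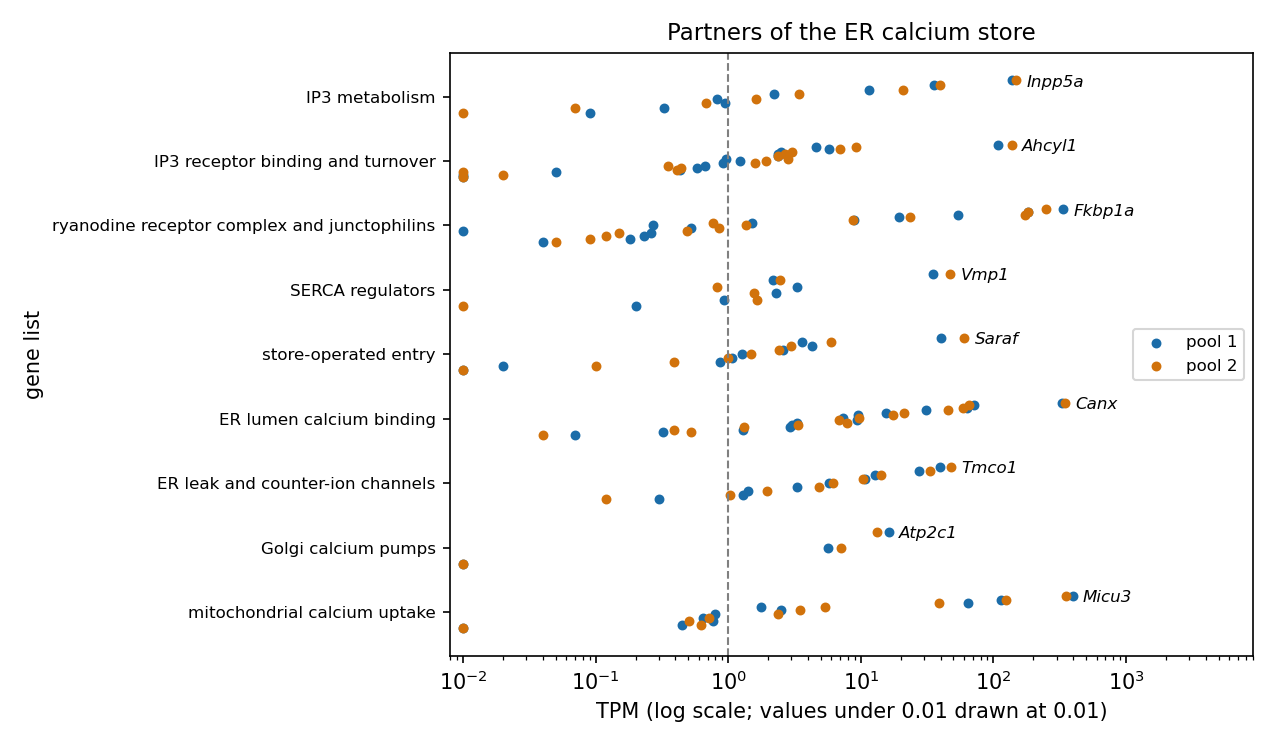
TPM in each pool (log axis, values under 0.01 drawn at 0.01) of the genes in 9 of the 10 lists of store partners, with the highest gene of each list named and a dashed line at 1 TPM. The same gene leads each list shown in both pools, with Micu3 the highest of these at 395.73 and 355.26 TPM.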

How the data were processed

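Per the labels, total RNA above 200 in size from pools of 30 laser-captured cells was turned into libraries with a SMARTer Ultra Low kit and read on Illumina HiSeq instruments, with spike-in RNA added. The deposited tables were made separately for each library on mm10 and GENCODE M4, per the accompanying text file. The aligner and quantifier are not given in sources used here. Because the reference carries C57BL/6 sequence, reads of the other parental strain may map less well, which was not tested.

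Per the file headers, the authors deposited expected counts, estimated reads that need not be whole, for 69691 rows, and TPM values, which correct for transcript length and include spike-ins. The deposited FPKM values were not used. Per the file headers, transcript shares, in percent of the gene's TPM, are the authors' estimates. Rows that carry a number in place of a gene were left out (0.000412% of pool 1 counts and 0.000194% of pool 2), as were spike-ins (0.211% and 0.411%). GENCODE M21, also on mm10, gave symbols and coordinates, with 42462 identifiers matched.

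Detection was a TPM of at least 1. Ratios used TMM factors from edgeR 4.0.16 (R 4.3.3) on expected counts, for genes whose pools summed to at least 10, after the scripts were tested on simulated data. Exact conditional intervals (95%) on ratios and exact Poisson intervals on counts came from scipy 1.17.1. With 1 library on each side no p-value was computed. Members, gene lists and alternatives were chosen with earlier results of these data known, and the alternatives on full-length transcripts were added after seeing the data. Genes named are the 10 members, Atp2a1, the 3 highest of each partner list, the 2 highest markers of lists used and those at 0 counts, apart from those said to be chosen later (Gfap and the genes that overlap members are likewise outside that rule). Some genes that the rule names are left out of the text.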

Additional observations from a re-analysis of the deposited data

How the results depend on the processing

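With a threshold of 0.1 TPM, 9 of the 10 store genes were detected in both pools, and with one of 5 TPM, 36 of the 100 partners were. Rescaling TPM over nuclear protein-coding genes multiplied the members' levels by 1.80 to 1.86 and put Ryr1 above 1 TPM in both pools. Posterior mean TPM gave Itpr1 99.95% of IP3 receptor TPM and raised Itpr2 to a mean of 0.45 TPM, and it put Ryr3 ahead of Ryr1 in pool 2. The Atp2a2 share of SERCA TPM was 98.2% without Atp2a1 and 98.1% with its full-length transcript alone, the latter chosen after seeing the data. Spike-in totals put 6 members beyond 2-fold, and dropping the filter on counts put 2 there, adding Itpr3 from 0 counts and 1 count. The remaining 28 comparisons of summary values stayed within their spread or within 1.5 times. For the shares, those that left out a replicate could not do otherwise. Each of 2 pools always lies within the SD of their mean, so nothing is read from these. Leaving out each replicate in turn gave 5 to 5 members detected, 64 to 66 partners, an Itpr1 share of 99.98% to 99.99%, a Ryr1 share of 44.5% to 63.4% and an Atp2a2 share of 97.3% to 97.9%. No paired analysis was possible because both pools belong to 1 group. Depth limits Itpr2, Itpr3 and Ryr3, with at most 148 counts over both pools, and 2 pools limit every SD.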
